A study of Mus musculus with 12 samples.

Results

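The genes of the myostatin, TGF-β and BMP4 signaling system described here were followed in the mouse myoblast line C2C12 before and after myogenic differentiation. They were taken by gene symbol and comprise the ligand genes *Mstn*, *Inhba*, *Tgfb1*, *Tgfb2*, *Tgfb3* and *Bmp4*, the receptor gene *Acvr2b* and the genes of the secreted inhibitors *Fst*, *Fstl3* and *Grem1*. All 10 were found among the 46983 Ensembl genes of the expression table, of which 27138 were above 0 in at least 1 library. The PPARγ/+ cells carried the PiggyBac vector PB-IP with the coding sequence of the nuclear receptor PPARγ. The WT cells are labelled PB-IP, but the methods call the controls C2C12 cells and do not state that they carried the empty vector. RNA of both cell types was sequenced on day 0 (WT_0d and PPARγ/+_0d) and on day 5 of differentiation (WT_5d and PPARγ/+_5d). There were 3 libraries in each of the 4 groups and 12 in all. Cells transfected with the PPARγ construct were selected with puromycin, and selection of the WT cells is not stated. The abstract and the series text call the overexpression inducible, while the methods name no inducing agent. The number of clones and the promoter that drives the coding sequence are not given in the sources used here.

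Myostatin and the activins signal through activin type II receptors to SMAD proteins and restrain the growth of skeletal muscle. Follistatin (*Fst*) and the follistatin-like protein of *Fstl3* bind these ligands in the extracellular space and keep them from their receptors, while gremlin (*Grem1*) does so for BMPs such as BMP4. The TGF-β ligands are secreted in a latent form, held in the matrix, and are known in cultured myoblasts for holding back differentiation.

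Expression is given as FPKM, fragment numbers corrected for transcript length and for sequencing depth. Mapped fragments per library, recovered from the FPKM, lay between 19398640 and 25223589 in WT_0d, between 19296892 and 25471976 in WT_5d, between 21835052 and 26073154 in PPARγ/+_0d and between 18581300 and 21502453 in PPARγ/+_5d. A gene was tested when it had at least 0.1 FPKM in at least 3 libraries. That left 18023 genes, among them 9 of the 10 described here, all but *Mstn*. Log2 fold changes are differences of log2(FPKM + 0.1) from limma, given with the standard error (SE), and the added 0.1 makes the changes of weakly expressed genes look smaller. Calls between the days required a change of 2-fold or more and an unadjusted p-value from limma of 0.05 or less. Calls between the cell types required the same with the p-value adjusted by Benjamini-Hochberg. The authors call the 3 libraries of a group biological replicates. Neither they nor the labels say whether these came from separate cultures, so the p-values measure the spread between these libraries, which may be technical.

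The labels were checked against markers. *Pparg* was at 7.56, 5.10 and 6.92 FPKM in the WT_0d libraries and at 3.12, 3.53 and 4.59 in WT_5d. It was at 44.4, 28.0 and 46.4 FPKM in PPARγ/+_0d and at 40.1, 44.1 and 92.7 in PPARγ/+_5d, so that every PPARγ/+ library lay above every WT library. The myoblast markers *Des*, *Myf5* and *Myod1* were above 0 in all 12 libraries, with a summed level between 55.4 and 599 FPKM. The blood cell markers *Ptprc* and *Cd3e* summed to at most 0.0306 FPKM. Of the epithelial pair *Krt5* and *Krt14*, *Krt14* was at 6.69 to 36.7 FPKM and fell from 0d to 5d in both cell types (log2 fold change −1.44 in WT and −1.56 in PPARγ/+ cells).

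The 5 markers of differentiated muscle (*Acta1*, *Myh3*, *Tnnt3*, *Ckm* and *Myog*, with *Acta1* the most abundant) rose in both cell types, and 3 libraries stood apart from their groups. The summed muscle markers were at 13.6, 92.2 and 8.88 FPKM in WT_0d replicates 1, 2 and 3, and at 3637, 2724 and 804 FPKM in WT_5d. In PPARγ/+_0d the sum was 6.50, 12.6 and 21.1 FPKM, and in PPARγ/+_5d it was 813, 937 and 956 FPKM. WT_0d replicate 2 was thus high among the undifferentiated WT libraries, and WT_5d replicate 3 lay at the level of the PPARγ/+_5d libraries. The 6 adipocyte markers (*Adipoq*, *Fabp4*, *Plin1*, *Cidec*, *Cfd* and *Lep*) summed to between 0.0345 and 0.0794 FPKM in the WT libraries, to 5.04, 2.90 and 4.18 in PPARγ/+_0d and to 13.3, 20.0 and 67.2 in PPARγ/+_5d. Here PPARγ/+_5d replicate 3, which also had the highest *Pparg*, stood apart. *Adipoq* was the most abundant of these markers in the PPARγ/+_5d libraries, and *Lep* was at 0 in every library. In bulk RNA, fewer differentiated cells and less of a transcript per cell cannot be told apart. The part of these markers in the results was not tested.

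**Figure D1:**
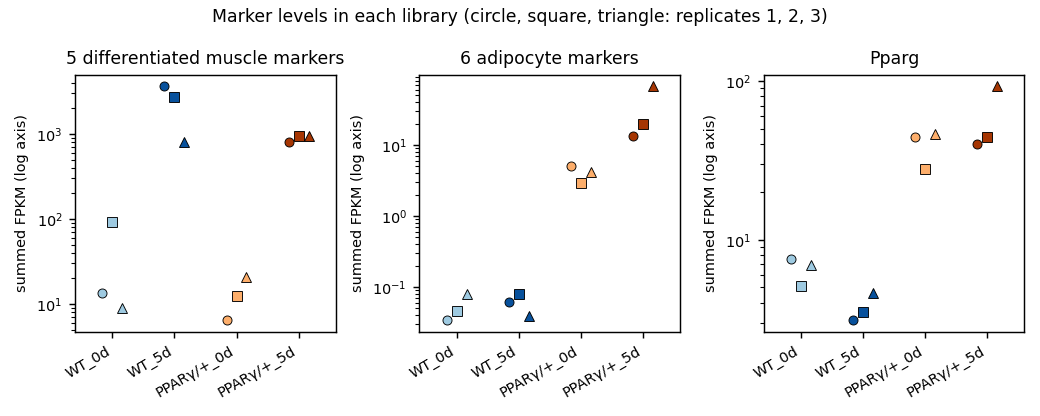
Summed FPKM (log axis) of 5 differentiated muscle markers, of 6 adipocyte markers, and FPKM of *Pparg*, for each of the 12 libraries in 4 groups, with the replicates 1, 2 and 3 as circle, square and triangle. WT_5d replicate 3 lies at 804 FPKM of muscle markers where the other WT_5d libraries lie at 3637 and 2724, and PPARγ/+_5d replicate 3 has the highest adipocyte markers, at 67.2 FPKM.

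*Tgfb3*, *Bmp4* and *Grem1* were the most abundant of the 10 transcripts in every group, and *Mstn* and *Acvr2b* the least. In WT_0d the order by mean FPKM was *Grem1* (67.5), *Tgfb3* (39.6), *Bmp4* (38.0), *Tgfb1* (15.3), *Inhba* (8.75), *Tgfb2* (5.51), *Fstl3* (2.96), *Fst* (2.68) and *Acvr2b* (0.331). The libraries of *Tgfb3* and *Bmp4*, and those of *Fstl3* and *Fst*, overlapped there, while the other neighbours were separate. By WT_5d *Fst* stood at 18.2 FPKM between *Grem1* (61.9) and *Tgfb1* (17.0), and its libraries overlapped those of *Tgfb1*. In PPARγ/+_0d *Bmp4* led with 90.8 FPKM, overlapping *Tgfb3* (74.3), and in PPARγ/+_5d *Tgfb3* (89.2) and *Bmp4* (87.5) overlapped and lay above *Grem1* (58.2).

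*Mstn*, the myostatin gene on chromosome 1 (53061640 to 53068079, ENSMUSG00000026100), was nearly silent. It was listed at 0 in 11 of the 12 libraries and held 1 fragment, 0.0145 FPKM, in WT_5d replicate 1. At these depths 3 fragments, the limit that a count of 0 allows, correspond to between 0.0425 and 0.0597 FPKM, a limit that covers counting error only. It does not apply to WT_5d replicate 1, which held a fragment. No fold change is given, since no library reached the 0.1 FPKM of the filter.

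Differentiation of the WT cells, WT_5d against WT_0d, was marked by a rise of follistatin and of a pair of TGF-β ligands. *Fst* rose 6.60-fold, *Tgfb2* 2.88-fold and *Tgfb3* 2.11-fold, whereas *Tgfb1*, *Inhba*, *Bmp4*, *Acvr2b*, *Fstl3* and *Grem1* were not called. Of the 9 genes tested, 3 rose and 0 fell, where 8.94% of all genes tested rose and 7.53% fell. The median log2 fold change of the 9 was 0.64, against −0.08 over all genes tested.

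Among the ligands, *Tgfb2* (chromosome 1, 186622792 to 186705989, ENSMUSG00000039239) was at 4.48, 5.76 and 6.29 FPKM in WT_0d and at 14.8, 18.1 and 15.1 FPKM in WT_5d. All day 5 libraries lay above all day 0 libraries, and the log2 fold change was 1.53 (SE 0.15, limma, adjusted p = 0.000833). *Tgfb3* (chromosome 12, 86056745 to 86079041, ENSMUSG00000021253) was at 34.4, 44.5 and 39.8 FPKM on 0d and at 89.3, 96.4 and 66.3 on 5d. The days did not overlap, the lowest day 5 value was that of replicate 3, and the log2 fold change was 1.07 (SE 0.17, limma, adjusted p = 0.00394). This call rests on a change close to 2-fold, since without WT_0d replicate 1 or WT_5d replicate 2 the log2 fold change was 0.98 or 0.97 and *Tgfb3* was not called. *Bmp4* (chromosome 14, 46383520 to 46390669, ENSMUSG00000021835), a ligand known for inducing bone, was at 25.5, 51.8 and 36.7 FPKM on 0d and at 46.4, 60.6 and 91.9 on 5d. Its days overlapped, through WT_0d replicate 2 and WT_5d replicate 1, and at a log2 fold change of 0.80 (SE 0.33, limma, adjusted p = 0.103) it was short of 2-fold. It was past both thresholds without WT_0d replicate 2 (1.06) or WT_5d replicate 1 (1.03).

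*Tgfb1* (chromosome 7, 25687002 to 25705077, ENSMUSG00000002603) was the steadiest ligand, at 14.5 to 16.1 FPKM on 0d and 16.7 to 17.6 on 5d. Its days did not overlap, but the difference was small, with a log2 fold change of 0.15 and a 95% interval from −0.02 to 0.33. *Inhba* (chromosome 13, 16011851 to 16031621, ENSMUSG00000041324), which encodes the subunit of activin A, was at 7.99, 8.87 and 9.38 FPKM on 0d and at 10.8, 5.92 and 7.74 on 5d. The day 5 libraries lay on both sides of the day 0 libraries (log2 fold change −0.14, interval −0.66 to 0.37). The receptor *Acvr2b* (chromosome 9, 119402118 to 119434995, ENSMUSG00000061393), which binds myostatin and activins, was at 0.441, 0.181 and 0.370 FPKM on 0d and at 0.493, 0.443 and 0.376 on 5d. These are 8 to 22 fragments per library, the days overlapped, and the interval of the log2 fold change (0.37, −0.35 to 1.09) includes both 0 and 2-fold.

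The inhibitors did not move as one. *Fst* (chromosome 13, 114452290 to 114458951, ENSMUSG00000021765) was at 2.03, 3.82 and 2.20 FPKM in WT_0d and at 24.8, 17.3 and 12.7 in WT_5d. The highest day 0 value was that of replicate 2 and the lowest day 5 value that of replicate 3, the pair of WT libraries whose muscle markers stood apart, and the days were far from overlapping. The log2 fold change was 2.72 (SE 0.32, limma, adjusted p = 0.00145), and 3.23 without the 3 libraries that stood apart. *Fstl3* (chromosome 10, 79777272 to 79782630, ENSMUSG00000020325) was at 3.02, 2.82 and 3.06 FPKM on 0d and at 5.54, 5.38 and 3.41 on 5d. Its days did not overlap, but the log2 fold change of 0.64 (SE 0.20, limma, adjusted p = 0.0452) was short of 2-fold. *Grem1* (chromosome 2, 113746164 to 113758646, ENSMUSG00000074934) was at 48.1, 99.3 and 55.1 FPKM on 0d and at 49.2, 43.8 and 92.7 on 5d. One library of each day, the same pair that stood apart, held the high value, and the log2 fold change was −0.13 with an interval from −1.03 to 0.76.

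Around these genes, the other secreted antagonists and latency proteins had 7 of 15 tested risen in WT cells, 0 fallen and a median log2 fold change of 0.77 (−0.08 over all genes, of which 8.94% rose and 7.53% fell). *Dcn*, the proteoglycan decorin that binds TGF-β, rose from 18.9 ± 15.6 to 296 ± 72.1 FPKM (SD, n = 3), by 4.25 on the log2 scale. That rise ranged from 3.76 to 4.88 without 1 library and was 5.08 without the 3 libraries that stood apart. The BMP antagonist *Chrdl1* rose by 3.15 on the log2 scale, from 2.99 ± 1.53 to 25.7 ± 4.92 FPKM, and its relative chordin (*Chrd*) by 2.22, from 0.936 ± 0.155 to 4.77 ± 1.07 FPKM. *Lrrc32*, which tethers latent TGF-β to the cell surface, rose by 2.88. *Bmper*, *Ltbp3* and *Nbl1* rose as well and are named because the count is small, after their values were seen. Of the other ligands 11 of 27 were tested, of which 5 rose and 1 fell, beside the same shares of all genes (median 0.48). *Inhbb*, a subunit of activin B, was at 4.59, 15.1 and 6.33 FPKM on 0d and at 22.6, 25.6 and 40.0 on 5d, a log2 fold change of 1.89. *Inha* rose by 1.12, but was short of 2-fold without WT_0d replicate 3 (0.93) or WT_5d replicate 3 (0.98), and the stress-induced ligand *Gdf15* fell by 1.32. *Gdf5*, *Gdf6* and *Gdf9*, named after their values were seen, rose from below 0.3 FPKM. *Gdf5* and *Gdf6* reached the 0.1 FPKM of the filter only in day 5 libraries. They were thus tested because they were high on 5d, and no conclusion is drawn from their rise or their part in the count.

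*Tgfbr2*, the type II receptor of TGF-β, was the 1 of 13 receptors and coreceptors called (8.94% of all genes rose), rising from 49.9 ± 8.54 to 104 ± 4.15 FPKM (SD, n = 3, log2 fold change 1.08), and was short of 2-fold without WT_0d replicate 1 (0.93). The median of the list was 0.31. None of the 12 SMADs and their regulators was called by limma, although 5 had an unadjusted p-value under 0.05 (46.8% of all genes tested did, median of the list −0.20), and none of the 3 proteases tested was, with 1 under 0.05 (median 0.20). Known targets of the pathway went both ways, 2 of 10 risen and 2 fallen (8.94% and 7.53% of all genes, median of the list 0.18). *Thbs1* rose by 1.49 and *Pmepa1* by 1.23 on the log2 scale, while the BMP target *Id2* fell from 42.6 ± 3.17 to 12.7 ± 2.33 FPKM (SD, n = 3).

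**Figure D2:**
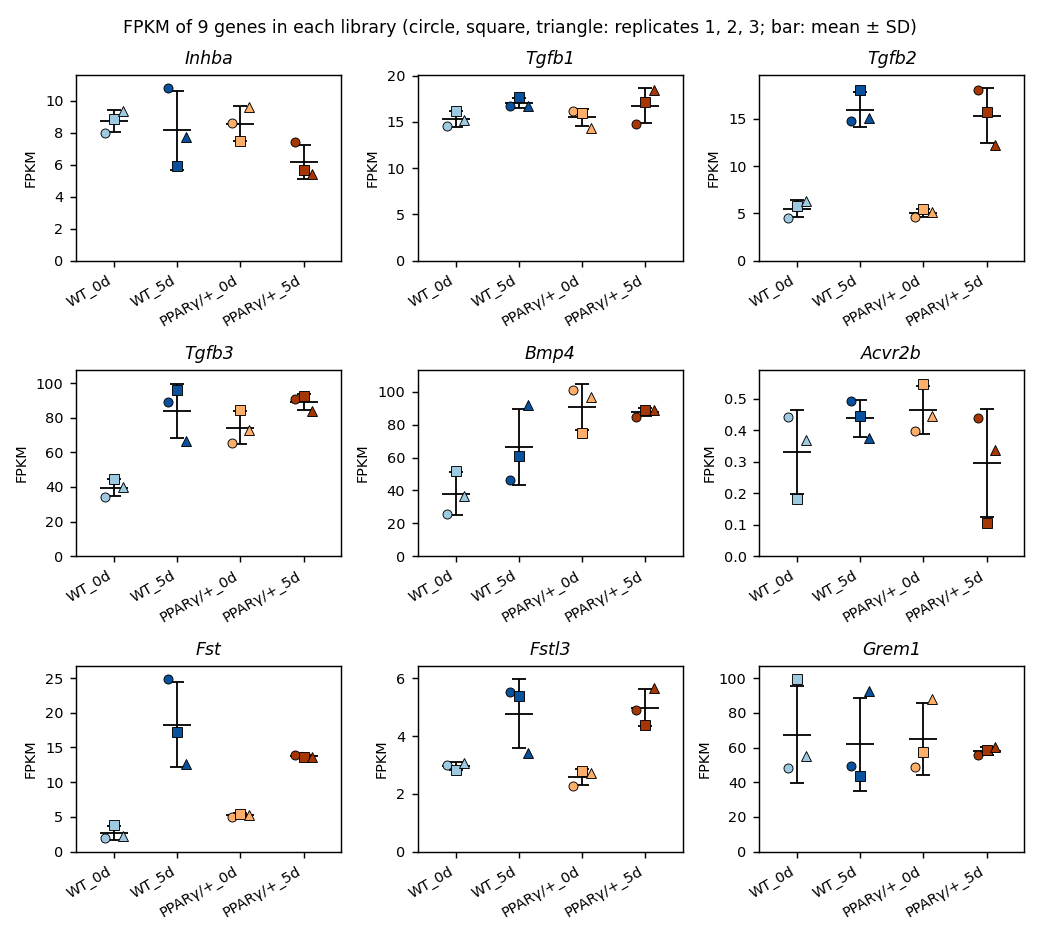
FPKM of 9 genes (axes from 0) in each of the 12 libraries, by group, with replicates 1, 2 and 3 as circle, square and triangle and the mean ± SD (n = 3) as bars. *Fst* and *Tgfb2* are higher in all day 5 libraries than in all day 0 libraries, whereas *Grem1* overlaps between all groups.

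In the PPARγ/+ cells, PPARγ/+_5d against PPARγ/+_0d, *Fst* and *Tgfb2* rose again and *Tgfb3* was not called. *Fst* rose 2.58-fold and *Tgfb2* 2.96-fold. *Fstl3* came close to 2-fold, *Inhba* was lower on 5d by less than 2-fold, and *Tgfb1*, *Bmp4*, *Acvr2b* and *Grem1* overlapped between the days. Of the 9 genes tested 2 rose and 0 fell, against 9.11% and 6.06% of all genes tested, and their median log2 fold change was 0.11, against −0.10 over all genes.

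*Tgfb2* was at 4.63, 5.42 and 5.14 FPKM in PPARγ/+_0d and at 18.0, 15.7 and 12.3 in PPARγ/+_5d, without overlap (log2 fold change 1.57, SE 0.14, limma, adjusted p = 0.000246). *Tgfb3* was at 65.5, 84.6 and 72.8 FPKM on 0d and at 91.2, 92.5 and 83.8 on 5d. Its day 0 libraries already lay near the day 5 level, replicate 2 of 0d overlapped replicate 3 of 5d, and the log2 fold change was 0.27 (SE 0.10, limma, adjusted p = 0.0629). *Bmp4* was at 101, 74.7 and 96.7 FPKM on 0d and at 84.7, 89.2 and 88.8 on 5d, with the day 5 values inside the range of 0d (log2 fold change −0.04, interval −0.31 to 0.23). *Tgfb1* was at 14.4 to 16.1 FPKM on 0d and 14.7 to 18.4 on 5d (log2 fold change 0.11). *Inhba* was at 8.63, 7.48 and 9.62 FPKM on 0d and at 7.40, 5.66 and 5.44 on 5d. Its days were separate by a narrow gap, and the log2 fold change was −0.48 (SE 0.14, limma, adjusted p = 0.0324). *Acvr2b* was at 0.397, 0.547 and 0.444 FPKM on 0d and at 0.440, 0.106 and 0.338 on 5d, where replicate 2 held 4 fragments (log2 fold change −0.62, interval −1.51 to 0.28).

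Among the inhibitors, *Fst* was at 5.00, 5.48 and 5.31 FPKM in PPARγ/+_0d and at 14.0, 13.7 and 13.6 in PPARγ/+_5d. Its libraries lay close together within each day, and the log2 fold change was 1.37 (SE 0.06, limma, adjusted p = 2.1e-05). *Fstl3* was at 2.28, 2.78 and 2.74 FPKM on 0d and at 4.89, 4.39 and 5.66 on 5d. All day 5 libraries were higher, at a log2 fold change of 0.91 (SE 0.13, limma, adjusted p = 0.00129), and it was past 2-fold after median-ratio scaling of the libraries (1.04, adjusted p = 0.000657, with a range of 0.000433 to 0.00882 over the alternatives). *Grem1* was at 48.7, 57.5 and 88.1 FPKM on 0d and at 55.8, 58.4 and 60.5 on 5d, overlapping (log2 fold change −0.11, interval −0.59 to 0.38). Under median-ratio scaling the all-gene median shifted, from −0.10 to 0.02 in PPARγ/+ cells and from −0.08 to 0.03 in WT cells. The log2 fold changes of *Bmp4* and *Grem1* in PPARγ/+ cells, both near 0, turned positive under it, to 0.09 and 0.02.

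**Figure D3:**
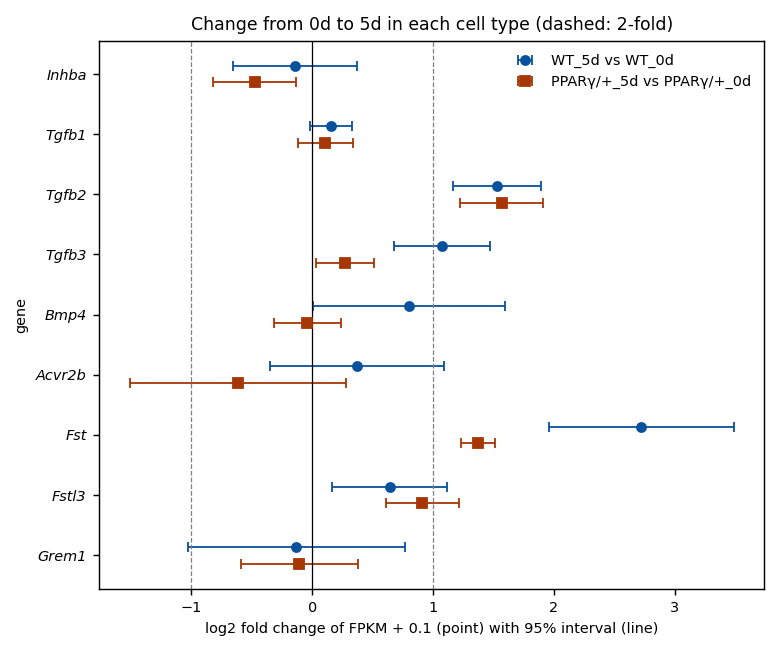
Log2 fold change of FPKM + 0.1 from 0d to 5d (horizontal axis) for 9 genes, in WT cells (circles) and PPARγ/+ cells (squares), with 95% intervals from limma over 3 libraries against 3 as lines and 2-fold as dashed lines. *Fst* lies at 2.72 in WT cells and 1.37 in PPARγ/+ cells, and *Tgfb2* at 1.53 and 1.57.

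Of the antagonists and latency proteins 6 of 15 rose in PPARγ/+ cells and 1 fell (median log2 fold change 0.81, against −0.10 over all genes, of which 9.11% rose and 6.06% fell). *Dcn* rose from 6.11 ± 2.91 to 479 ± 51.2 FPKM (SD, n = 3), by 6.37 on the log2 scale. *Lrrc32* rose by 2.69, *Chrdl1* from 7.81 ± 1.53 to 31.4 ± 4.14 FPKM and *Bmper*, a regulator of BMPs, by 1.95, from 10.6 ± 3.15 to 40.5 ± 6.72 FPKM. *Chrd* and *Ltbp3* rose and *Wfikkn1* fell, named after their values were seen. Of the 11 other ligands tested 4 rose and 0 fell, beside the same shares of all genes (median 0.36). *Inhbb* rose from 3.50, 7.25 and 9.56 FPKM to 28.2, 28.2 and 27.8 (log2 fold change 2.15), and *Bmp6*, *Gdf6* and *Gdf9*, all below 1 FPKM and named after their values were seen, rose too. *Bmp6* passed the filter only through the PPARγ/+_5d libraries, and *Gdf6* only through day 5 libraries. No conclusion is drawn from the rise of *Bmp6* and *Gdf6* or from their part in the count.

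Of the 13 receptors and coreceptors none was called by limma, with 4 at an unadjusted p-value under 0.05 (54.4% of all genes tested, median of the list 0.16), and of the 3 proteases none, with 2 under 0.05 (median 0.31). Among the 12 SMADs and their regulators *Smad7*, an inhibitory SMAD, was called, at 13.4, 12.2 and 10.5 FPKM on 0d and at 3.80, 5.02 and 4.81 on 5d (log2 fold change −1.39, median of the list −0.22). This is 1 of 12 fallen, where 6.06% of all genes fell. By limma 7 of the 12 had an unadjusted p-value under 0.05, beside 54.4% of all genes. Of the 10 targets 1 rose and 2 fell (9.11% and 6.06% of all genes, median of the list 0.28). *Ccn2*, a matrix protein induced by TGF-β, rose from 14.5 ± 2.86 to 63.4 ± 9.17 FPKM (SD, n = 3), *Id2* fell from 56.8 ± 13.7 to 17.7 ± 1.01 FPKM, and *Id3* fell by 1.07 on the log2 scale. The fall of *Id3* was short of 2-fold after median-ratio scaling (−0.93), after quantile normalization (−0.95) and without PPARγ/+_5d replicate 1 (−0.99).

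Before differentiation, PPARγ/+_0d against WT_0d, the clearest differences lay in *Bmp4*, *Tgfb3* and *Fst*, each higher in every PPARγ/+ library than in every WT library. *Bmp4* was 2.46-fold and *Fst* 2-fold higher by the fit, and *Tgfb3* 1.88-fold, but none of these met both thresholds. The other 6 genes differed by less than 1.35-fold. Of the 9 genes tested by limma 0 were called in either direction, where 0.361% of all genes tested were called higher and 1.23% lower. At an unadjusted p-value under 0.05 there were 3 of the 9 and 21.7% of all genes tested, and the median log2 fold change of the 9 was 0.0165, against 0.024 over all genes.

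*Bmp4* ranged from 25.5 to 51.8 FPKM in WT_0d and from 74.7 to 101 in PPARγ/+_0d, with 1.30 as log2 fold change (SE 0.27, limma, adjusted p = 0.0596). *Fst* ranged from 2.03 to 3.82 and from 5.00 to 5.48 FPKM, with 1.0 as log2 fold change (SE 0.24, limma, adjusted p = 0.0799). Both were called with 1 fit over all 12 libraries (limma, adjusted p = 0.0174 and 0.0382) and with a filter at 1 FPKM (0.0258 and 0.0393), while over the alternatives the adjusted p ranged from 0.0174 to 0.206 for *Bmp4* and from 0.0316 to 0.226 for *Fst*. Without WT_0d replicate 2, the library with high muscle markers, *Fst* was called at a log2 fold change of 1.28 (limma, adjusted p = 0.0316). That library had the highest *Fst* of WT_0d, so leaving it out widens the difference by construction. *Tgfb3*, at 34.4 to 44.5 against 65.5 to 84.6 FPKM, passed the p-value threshold but not 2-fold (log2 fold change 0.91, SE 0.13, limma, adjusted p = 0.0264). *Fstl3* was slightly lower, without overlap (log2 fold change −0.19, interval −0.46 to 0.08), and *Tgfb1* (0.02), *Tgfb2* (−0.11), *Inhba* (−0.03) and *Grem1* (−0.03) overlapped. *Acvr2b* was at a log2 fold change of 0.43 with an interval from −0.28 to 1.14.

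Within the pathway lists, *Smad6*, an inhibitory SMAD of the BMP branch, was at 3.27, 3.41 and 3.13 FPKM in WT_0d and at 8.20, 7.87 and 6.70 in PPARγ/+_0d (log2 fold change 1.19, limma, adjusted p = 0.009). *Id3*, a BMP target, was at 68.3, 65.0 and 62.4 FPKM against 131, 143 and 128 (log2 fold change 1.03, limma, adjusted p = 0.00497). These 2 were the only genes called higher in PPARγ/+ cells in their lists, of 12 SMADs and regulators and of 10 targets. *Ccn2* was lower, at 31.8 ± 7.16 against 14.5 ± 2.86 FPKM (SD, n = 3, log2 fold change −1.12). *Ccn2* kept its call in 5 of 16 alternatives, *Smad6* in 14 and *Id3* in 12. Of the 15 antagonists and latency proteins 1 was called higher and 0 lower (0.361% and 1.23% of all genes). None of the other ligands (1 of 11 at an unadjusted p-value under 0.05), receptors (1 of 13) or proteases (2 of 3) was called by limma. Over all genes tested, 21.7% had an unadjusted p-value under 0.05. The medians of the lists lay at −0.10 for other ligands, 0.21 for receptors, 0.05 for antagonists, −0.29 for proteases, 0.02 for SMADs and 0.25 for targets, against 0.02 over all genes. In the same libraries the myoblast markers *Myf5* and *Des* were lower in PPARγ/+ cells, by log2 fold changes of −1.58 and −1.41. Of 16 alternatives *Myf5* kept its call in 15 and *Des* in 6, and *Des* lost it without any 1 of the 6 libraries.

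On 5d, PPARγ/+_5d against WT_5d, none of the 9 genes was called between the cell types. All of them overlapped between the groups. By limma 0 were called and 0 had an unadjusted p-value under 0.05, where 0.0943% of all genes tested were called higher and 0.061% lower, and 12.7% had an unadjusted p-value under 0.05. *Fst* was at 13.6 to 14.0 FPKM in PPARγ/+ cells, inside the WT range of 12.7 to 24.8 (log2 fold change −0.35, interval −0.92 to 0.22). *Bmp4* was at 84.7 to 89.2 FPKM, inside the WT range of 46.4 to 91.9 (0.46, interval −0.13 to 1.05). *Tgfb2* (−0.07), *Tgfb3* (0.10), *Tgfb1* (−0.03), *Fstl3* (0.08) and *Grem1* (−0.01) lay near 0, and *Inhba* (−0.37) and *Acvr2b* (−0.55) somewhat lower, with a median of −0.03 against 0.02 over all genes.

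The number of genes called on 5d changed with every library left out. With all libraries 28 genes were called, and without WT_5d replicate 3 there were 723, still 0 of the 9 genes among them. Leaving out any 1 of the other 5 libraries compared gave between 1 and 8 genes. No gene of the other ligands, receptors, antagonists, proteases, SMADs or targets was called by limma, although 5 of 11, 0 of 13, 3 of 15, 0 of 3, 5 of 12 and 4 of 10 had an unadjusted p-value under 0.05. Over all genes tested that share was 12.7%. The medians of all genes are given above. The medians of these lists were −0.08, 0.02, 0.09, −0.10, 0.05 and 0.18.

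An interaction test over the 12 libraries asked whether the cell types changed differently over the 5 days, with a positive value where the log2 change was greater in the PPARγ/+ cells (called at an adjusted p-value of 0.05 or less). The rises of *Fst* and *Tgfb3* were smaller in PPARγ/+ cells, but neither difference passed the threshold with all libraries. For *Fst* the interaction was −1.35 (SE 0.34, limma, adjusted p = 0.122), for *Tgfb3* −0.80 (SE 0.20, limma, adjusted p = 0.122) and for *Bmp4* −0.84 (SE 0.37, limma, adjusted p = 0.4). Of the 9 genes 0 were called by limma and 3 had an unadjusted p-value under 0.05, where 0.76% of all genes tested were called and 2164 of 18023 had an unadjusted p-value under 0.05. The interactions of *Tgfb2* (0.04, interval −0.45 to 0.52), *Tgfb1* (−0.04, −0.31 to 0.22), *Fstl3* (0.27, −0.26 to 0.81), *Inhba* (−0.33, −0.94 to 0.27), *Grem1* (0.02, −0.98 to 1.03) and *Acvr2b* (−0.98, −2.08 to 0.12) had intervals that include 0.

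These results turned on the WT libraries that stood apart. Without WT_5d replicate 3 the interaction was −1.59 for *Fst* (limma, adjusted p = 0.0259) and −0.97 for *Tgfb3* (limma, adjusted p = 0.0148). Both were called, among 527 of all 18023 genes tested, against 137 with all libraries. Without WT_0d replicate 2 *Fst* alone was called (−1.63, limma, adjusted p = 0.0488), with 65 calls over all genes. Without all 3 libraries that stood apart, an alternative chosen after the data were seen, *Fst* was at −1.85 (limma, adjusted p = 0.00958) and *Tgfb3* at −1.01 (limma, adjusted p = 0.0327). That alternative gave 274 calls over all genes. WT_5d replicate 3 had the lowest *Fst* and *Tgfb3* of its group, and WT_0d replicate 2 the highest. Leaving them out enlarges the WT rise by construction, so no conclusion is drawn from these calls. Over all alternatives the adjusted p of limma ranged from 0.00958 to 0.266 for *Fst* and from 0.0147 to 0.289 for *Tgfb3*. Among the pathway lists, with all libraries, 2 of the 10 targets were called, beside 0.76% of all genes tested. Among them was *Ccn2* (1.68, SE 0.27, limma, adjusted p = 0.018). *Ccn2* was at 32.5, 38.6 and 24.3 FPKM in WT_0d, 47.6, 37.0 and 44.5 in WT_5d, 14.1, 11.8 and 17.5 in PPARγ/+_0d and 52.9, 69.7 and 67.7 in PPARγ/+_5d. No other ligand (4 of 11 at an unadjusted p-value under 0.05), receptor (1 of 13), antagonist (4 of 15), protease (0 of 3) or SMAD (4 of 12) was called by limma.

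Genes whose pattern over the 12 libraries was most like that of each transcript were taken from the 12400 genes tested with at least 1 FPKM in a group mean, by Pearson r of log2(FPKM + 0.1). The libraries share day and cell type, so r describes how alike the 2 patterns are and no more. *Fst* was closest to *Trabd2b* (r = 0.990) and *Dclk1* (0.985), and *Tgfb2* to *Ptgfrn* (0.990) and *Colq* (0.985), the gene of the collagen tail of acetylcholinesterase. *Tgfb3* was closest to the matrix genes *Col5a2* (0.982), a chain of collagen V, and *Fmod* (0.952), the proteoglycan fibromodulin. *Bmp4* lay nearest to *P4ha3* (0.953), a subunit of collagen prolyl hydroxylase, and *Rnase10* (0.934), and *Fstl3* to *Pex19* (0.969) and *Rdh5* (0.959). The patterns of *Inhba* (*Gm16089*, 0.882, and *Tcea1-ps1*, 0.875), *Grem1* (*Fam13b*, 0.869, and *Gm6142*, 0.807), *Tgfb1* (*Prdx5*, 0.846, and *0610037L13Rik*, 0.810) and *Acvr2b* (*Tmem181b-ps*, 0.818, and *Gm25897*, 0.812) had no neighbour above 0.9.

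Promoter sequences of RefSeq (build GRCm38.p6) matched 8 of the 10 genes, and those of *Fst* and *Tgfb3* did not match. The 250 bases before the start are shown for *Tgfb2*, which rose in both cell types, for *Bmp4*, higher in all PPARγ/+_0d than in all WT_0d libraries, and for *Mstn*, which was nearly silent. Capitals mark matches to the E-box CANNTG, the motif that myogenic bHLH factors are known to bind. The windows lie outside the exons of the genes themselves, and that of *Tgfb2* overlaps an exon of the antisense gene *Gm29491*.
*Tgfb2*, chr1:186705990-186706239, minus strand: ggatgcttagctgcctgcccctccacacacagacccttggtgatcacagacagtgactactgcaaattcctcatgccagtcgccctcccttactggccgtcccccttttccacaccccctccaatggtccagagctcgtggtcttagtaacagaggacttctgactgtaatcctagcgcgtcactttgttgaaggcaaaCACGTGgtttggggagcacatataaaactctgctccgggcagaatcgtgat
*Bmp4*, chr14:46390670-46390919, minus strand: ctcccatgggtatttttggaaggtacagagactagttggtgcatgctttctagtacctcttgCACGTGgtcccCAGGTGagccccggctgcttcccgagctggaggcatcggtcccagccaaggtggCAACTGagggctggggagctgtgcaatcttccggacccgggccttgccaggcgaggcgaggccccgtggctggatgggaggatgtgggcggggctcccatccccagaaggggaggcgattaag
*Mstn*, chr1:53061390-53061639, plus strand: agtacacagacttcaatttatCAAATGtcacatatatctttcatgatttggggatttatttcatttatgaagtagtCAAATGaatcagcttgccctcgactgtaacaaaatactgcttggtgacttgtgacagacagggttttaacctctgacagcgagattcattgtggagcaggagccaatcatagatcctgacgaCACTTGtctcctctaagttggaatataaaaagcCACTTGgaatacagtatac
On both strands CANNTG occurred 1 time before *Tgfb2*, 3 times before *Bmp4* and 4 times before *Mstn*, and it is held by 66.0% of 27025 promoter windows of this length. The letters CAGAC, the core of the SMAD-binding element, occurred 2 times before *Tgfb2* and 2 times before *Mstn* and are in 42.1% of the windows. TATAAA occurred 1 time in each of these 2 windows and is in 13.0%, and neither motif was found before *Bmp4*. A match is a run of letters and not a site shown to be bound.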

How the data were processed

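The deposited FPKM of 4 groups of 3 libraries were used as they are, with no scaling between libraries. The authors made them from paired-end reads with Trim Galore, STAR and HTSeq on known Ensembl genes. Their methods name GRCm38, the submitters' processing notes mm9. With exon lengths of GRCm38 (GENCODE M21), whole fragments (tolerance 0.01) were recovered for 21229 of 27138 expressed genes (78.2%), and gene positions are those of GRCm38. For *Fst*, *Acvr2b*, *Inhba*, *Tgfb3* and *Bmp4* a length giving whole fragments was inferred instead. Exons of *Fst*, *Fstl3*, *Tgfb2*, *Tgfb3* and *Bmp4* overlap genes on the opposite strand, for *Fstl3* by 1157 bp with *Prss57*, and strand-specific counting is not stated, so such fragments cannot be told apart. A second deposited table, on a log2 scale, was not used here.

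Tests used limma (version 3.58.1, R 4.3.3, empirical Bayes with a trend) on log2(FPKM + 0.1), on the 6 libraries compared, or on all 12 for the interaction, called at an adjusted p ≤ 0.05. Adjusted p-values are those of limma with Benjamini-Hochberg adjustment over the 18023 genes tested. Python 3.11.15, numpy 2.4.6, pandas 2.3.3 and matplotlib 3.10.9 were used for tables and plots.

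The genes and lists were chosen with earlier results of these data known. From each list and comparison up to 4 called genes with the largest change are named, if their higher group averaged 1 FPKM or more, and for each gene tested the 2 most similar. Some called genes of the lists are counted but not reported here by name. *Gdf1*, among the other ligands, was not analysed here. Results were recomputed with pseudocounts of 1 and 0.01, without a filter, with a filter at 1 FPKM, with median-ratio scaling, with quantile normalization, with the replicate block and without each library in turn, and, except for the interaction, with the other kind of p-value and with 1 fit over all 12 libraries. *Acvr2b* has no value with the filter at 1 FPKM.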

Additional observations from a re-analysis of the deposited data

Results flagged for a closer look

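By the interaction test, *Ccn2* and *Myf5*, neither of them among the 10 genes themselves, took a different course from 0d to 5d in WT and PPARγ/+ cells. For *Ccn2* the interaction was 1.68 and for the myoblast marker *Myf5* 2.20 (limma, adjusted p = 0.00844). *Myf5* was at 11.3, 13.2 and 11.6 FPKM in WT_0d and at 5.96, 3.53 and 3.79 in WT_5d, and at 3.66, 4.25 and 3.96 in PPARγ/+_0d and 5.58, 6.27 and 8.47 in PPARγ/+_5d. Every WT library was lower on 5d and every PPARγ/+ library higher. *Myf5* kept its call in all 20 alternatives run, and *Ccn2* in 14, with adjusted p-values of limma up to 0.0315 and 0.067. The cause was not tested.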

How the results depend on the processing

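Of 1625 recomputed values of 99 results for single genes, 1462 kept their direction and their side of the threshold, 103 lost a call, 16 gained a call and 44 changed sign. Of 168 recomputed counts 121 stayed within 1.5 times the count given and 47 did not. No result that changed sign was called, and the cause of these changes was not tested. Leaving out the 3 libraries that stand apart moved the calls over all genes from 2970 to 3292 (WT days) and from 2735 to 2697 (PPARγ/+ days), with the other comparisons below. A pseudocount of 1 makes fold changes smaller by construction, and a filter at 1 FPKM leaves fewer genes to adjust for.

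Over all genes, the calls of WT_5d vs WT_0d went from 2970 to 1441 with a pseudocount of 1. Those of PPARγ/+_5d vs PPARγ/+_0d went from 2735 to 1241 with a pseudocount of 1 and to 1806 with a filter at 1 FPKM. Those of PPARγ/+_0d vs WT_0d went from 287 to 115 with a pseudocount of 1, to 107 without a filter, to 661 with unadjusted p-values and to 90 without the 3 libraries that stand apart. Those of PPARγ/+_5d vs WT_5d went from 28 to 8 with a pseudocount of 1, to 71 with 0.01, to 606 with unadjusted p-values, to 199 with 1 fit over all 12 libraries and to 274 without the 3 libraries. Those of the interaction went from 137 to 274 without the 3 libraries. Without 1 library the counts ranged from 55 to 137 (PPARγ/+_0d vs WT_0d), 1 to 723 (PPARγ/+_5d vs WT_5d) and 42 to 527 (interaction).

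Of the 9 genes, 0 were called in PPARγ/+_0d vs WT_0d, 2 with a filter at 1 FPKM, with unadjusted p-values or with 1 fit over all 12 libraries, 1 without the 3 libraries that stand apart, and 0 to 1 without 1 library. In the interaction 0 were called, 2 without the 3 libraries, and 0 to 2 without 1 library.

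The replicate block gave 0 calls in PPARγ/+_0d vs WT_0d, 0 in PPARγ/+_5d vs WT_5d and 61 in the interaction. The samples share only a number. Deviations from the group mean correlated between libraries of the same number at −0.0669 to 0.0621 (WT days), 0.0340 to 0.0834 (PPARγ/+ days), −0.0679 to −0.0175 (0d) and −0.0447 to 0.0181 (5d), and 2, 6, 0 and 2 of 6 libraries correlated best with their own number.

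Signs changed as follows. In WT_5d vs WT_0d, without 1 library, *Inhba* ranged from −0.36 to 0.0653 and *Grem1* from −0.47 to 0.18. In PPARγ/+_5d vs PPARγ/+_0d *Bmp4* was at 0.0922 after median-ratio scaling and 0.0866 after quantile normalization and ranged from −0.17 to 0.0418 without 1 library, and *Grem1* was at 0.0245 after median-ratio scaling and ranged from −0.29 to 0.14. In PPARγ/+_0d vs WT_0d *Tgfb1* was at −0.0217 after median-ratio scaling and ranged from −0.021 to 0.0685, *Inhba* from −0.12 to 0.0614 and *Grem1* from −0.27 to 0.29, with 0.29 without the 3 libraries. In PPARγ/+_5d vs WT_5d the values without 1 library and without the 3 libraries were −0.19 to 0.0809 and 0.0414 for *Tgfb2*, −0.14 to 0.20 and −0.23 for *Fstl3*, −0.0587 to 0.21 and −0.0146 for *Tgfb3* and −0.21 to 0.33 and 0.30 for *Grem1*, while *Tgfb1* ranged from −0.10 to 0.062. In the interaction *Grem1* ranged from −0.29 to 0.36, *Tgfb2* from −0.0856 to 0.19 and *Tgfb1* from −0.12 to 0.0455, and *Fstl3* was at −0.00903 without the 3 libraries.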

Other observations

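WT_5d replicate 3, the WT library with few muscle markers on 5d, also differed from the other WT_5d libraries in some transcripts of the pathway, picked here after their values were seen. *Bmp4* was at 91.9 FPKM there and at 46.4 and 60.6 in replicates 1 and 2, *Grem1* at 92.7 against 49.2 and 43.8, and the BMP target *Id3* at 74.9 against 19.9 and 29.2. The related targets *Id1* (19.8 against 17.0 and 15.2 FPKM) and *Id2* (15.4 against 11.4 and 11.3) spread less. *Fst* (12.7 against 24.8 and 17.3 FPKM) and the TGF-β target *Pmepa1* (35.8 against 65.7 and 61.6) were lowest in it. In WT_0d replicate 2, with the highest muscle markers of its group, *Grem1* was at 99.3 FPKM against 48.1 and 55.1, *Inhbb* at 15.1 against 4.59 and 6.33, and *Dcn* at 36.7 against 12.3 and 7.67. In PPARγ/+_5d replicate 3, with the highest adipocyte markers of its group, *Tgfb2* was lowest, at 12.3 FPKM against 18.0 and 15.7, while *Fst* (13.6 against 14.0 and 13.7) and *Bmp4* (88.8 against 84.7 and 89.2) lay close to the others.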
